A study of Mus musculus with 2 samples.

Results

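The proximal miRNA genes of the imprinted Dlk1-Dio3 domain of mouse chromosome 12 taken here are 10 listed hairpins. They lie on the plus strand from Meg3 to the antisense strand of Rtl1. They are Mir770, Mir673, Mir493, Mir337, Mir540, Mir665, Mir431, Mir433, Mir127 and Mir434. The list leaves out Mir1906-1, Mir3070a, Mir3070b, Mir432 and Mir136 of the same strand and stretch. The rule is a list of symbols with a bound on position and uses no counts. The list was made with earlier results of these data known. All 10 had a row among the 1973 miRNA genes counted. Small RNA below 30 nt was sequenced from forebrain of B6NCrl mouse embryos at day 12.5 of development. The series held 1 group and 2 libraries. The library of replicate 1 was made from a pool of 120 embryos and that of replicate 2 from a pool of 68 embryos, with healthy embryos of both sexes pooled. No treatment, mutation or second tissue was part of the series, so no contrast between conditions was possible. Each pool gave a single library, and the spread between the libraries can hold differences of dissection, of library preparation and of the embryos alike.

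In this domain the long non-coding RNAs Meg3, anti-Rtl1, Rian and Mirg, and the miRNAs cut from them, are made from the maternal chromosome, whereas the protein-coding genes Dlk1, Rtl1 and Dio3 are expressed from the paternal chromosome. A miRNA pairs with messenger RNAs mainly through its seed, the bases near its 5′ end, and usually lowers the output of transcripts that match it only in part. The anti-Rtl1 miRNAs are an exception, since they are known to be fully complementary to the Rtl1 messenger RNA and can direct its cleavage. Rtl1 is a gene derived from a retrotransposon that is needed for the fetal capillaries of the placenta, and the miRNAs of the domain are best known from brain, muscle and placenta.

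By position the 10 genes fell into 3 sets. Mir770 (ENSMUSG00000076451.1, 109563692 to 109563785 of mm10) lies inside Meg3. Of 4 Meg3 transcripts of GENCODE M21 that span it, 3 hold it in an intron and 1 overlaps it with an exon. Mir673 (ENSMUSG00000076316.1, 109571990 to 109572080) starts 263 bases after the annotated end of Meg3 and, like the next 4 genes, overlaps no annotated long gene. Mir493 (ENSMUSG00000077025.2) lies at 109580233 to 109580315. Mir337 (ENSMUSG00000065526.3, 109585789 to 109585885), Mir540 (ENSMUSG00000072900.1, 109586080 to 109586146) and Mir665 (ENSMUSG00000076313.1, 109586314 to 109586407) sit together within 619 bases. The last 4 genes lie wholly inside the coding sequence of Rtl1, on the opposite strand. These are Mir431 (ENSMUSG00000070080.1, 109590447 to 109590537), Mir433 (ENSMUSG00000070072.1, 109591715 to 109591838), Mir127 (ENSMUSG00000070076.1, 109592846 to 109592915) and Mir434 (ENSMUSG00000070133.1, 109594506 to 109594599).

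**Figure D1:**
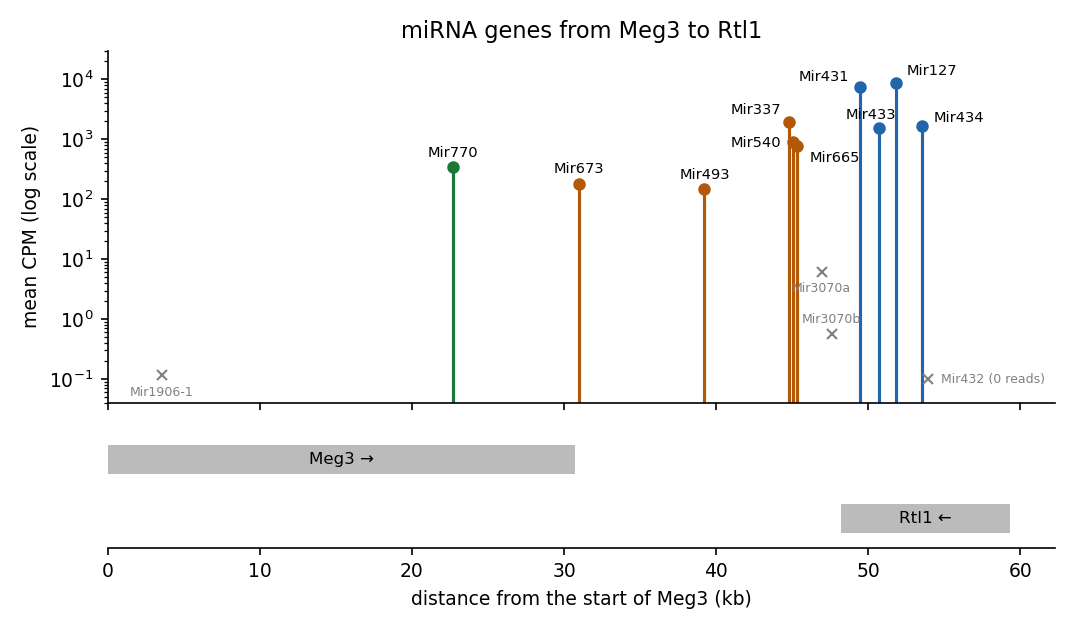
Mean CPM of both libraries (upper panel, log scale) against the distance from the start of Meg3 in kb, with Meg3 and Rtl1 drawn to scale and arrows for their strand (lower panel). Filled points with stems are the 10 genes (green inside Meg3, orange between Meg3 and Rtl1, blue antisense to the coding sequence of Rtl1) and grey crosses are the other plus-strand miRNA genes with a row; Mir432 had 0 reads and is drawn at the foot of the log axis. The highest points, Mir127 and Mir431, lie antisense to Rtl1.

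The mature sequences of the 4 anti-Rtl1 genes are shown first, because they held most of the reads and because their target is known by position alone. They are given from 5′ to 3′ with the seed, bases 2 to 8, in capitals.
miR-127-5p: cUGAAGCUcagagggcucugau
miR-127-3p: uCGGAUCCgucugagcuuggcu
miR-431-5p: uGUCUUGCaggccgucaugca
miR-431-3p: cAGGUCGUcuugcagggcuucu
miR-433-5p: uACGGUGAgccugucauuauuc
miR-433-3p: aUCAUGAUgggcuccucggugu
miR-434-5p: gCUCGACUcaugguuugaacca
miR-434-3p: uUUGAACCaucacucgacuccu

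Sequences are from RefSeq on GRCm38.p6, the assembly also called mm10. All 10 genes matched there, and each RefSeq hairpin was identical to that of GENCODE M21. Each of the 8 mature sequences of these 4 genes occurs once, as its exact reverse complement, in the Rtl1 transcript. The site of miR-127-3p, for example, covers bases 2495 to 2516 of the 5232 coding bases of Rtl1, counted from the first base of the start codon, and reads as follows in the DNA letters of the messenger strand.
Rtl1 site of miR-127-3p: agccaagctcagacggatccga
Rtl1 site of miR-431-5p: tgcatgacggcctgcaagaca
The miR-431-5p site lies nearer the end of the coding sequence, at bases 4925 to 4945. Of 1738 mature miRNA entries in the table, 11 (0.633%) are fully complementary to the Rtl1 transcript, and all 11 come from the plus strand of this stretch. They are the 8 above, both arms of Mir136 and the annotated arm of Mir432. None of the 12 arms of the other 6 genes has such a site. A match describes the sequence, and cleavage of Rtl1 was not measured.

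The hairpin of Mir127 shows how close both arms lie, with the mature arms in capitals.
Mir127 hairpin: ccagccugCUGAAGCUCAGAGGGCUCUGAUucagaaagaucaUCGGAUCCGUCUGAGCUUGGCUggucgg
The gene counts do not separate the arms, so a level given for a gene belongs to both of its arms together.

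The other 6 genes are given for comparison of their seeds.
miR-770-5p: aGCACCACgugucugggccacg
miR-770-3p: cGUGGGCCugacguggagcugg
miR-673-5p: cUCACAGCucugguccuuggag
miR-673-3p: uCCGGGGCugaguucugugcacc
miR-493-5p: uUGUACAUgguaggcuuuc
miR-493-3p: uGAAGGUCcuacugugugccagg
miR-337-5p: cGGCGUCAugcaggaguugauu
miR-337-3p: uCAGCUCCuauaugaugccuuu
miR-540-5p: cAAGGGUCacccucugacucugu
miR-540-3p: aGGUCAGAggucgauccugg
miR-665-5p: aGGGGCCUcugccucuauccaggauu
miR-665-3p: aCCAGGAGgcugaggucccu

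The 20 arms carried 20 different seeds, so no seed was shared within the set. Outside the set, 18 of the 20 seeds occurred in no other mouse gene of the table. The seed of miR-673-5p was shared with miR-6985-3p, whose gene Mir6985 stood at 0.462 CPM in replicate 1 and at 0 in replicate 2, both under the limit that 3 counts set. The seed of miR-540-3p was shared with miR-6915-5p, whose gene Mir6915 had no row. None of the 10 hairpins shared a stretch of 20 bases with another annotated hairpin, against 923 of all counted genes. Reads that matched several places of the genome, 37.9% of each library, stood outside the gene counts, and how many of them came from these genes cannot be read from the files.

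The hairpins measured 67 to 124 bases, with a GC content of 45.7% to 70.2% and a median of 56.8%. Over the 1894 counted genes with a sequence the median GC content was 51%. Mir770 had the highest GC content of the 10 and Mir434 the lowest. The minimum free energy predicted by RNAfold, per 100 bases, had a median of -48.9 kcal/mol over the 10 genes and of -43.8 over the 229 genes of at least 100 CPM. It ran from -61.9 in Mir770 to -36.1 in Mir433, whose annotated hairpin is the longest.

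Libraries held 4333194 and 4397107 gene-strand reads of miRNA genes, and a level here is a gene's reads per 1000000 such reads (CPM). The libraries differed by far more than sampling noise, with chi-square over degrees of freedom at 59.7 across the genes tested, and were counted as separate samples. The listed neural miRNAs summed to 29638 to 30384 CPM, with 9 of 11 counted members at 10 or more reads in both libraries. Mir92b alone gave 19420 CPM (replicate 1) and 19820 CPM (replicate 2), and Mir137 came next at 5127 and 5286 CPM. Mir124a-1, Mir124a-2, Mir124a-3 and Mir9-2 stood at 1.36 to 7.05 CPM. In this list 7 genes share a stretch with another hairpin, so their levels are uncertain. The neural sum lacks Mir124-2hg and Mir9-1, which had no row. Mir9-1 lies opposite Gm25641, whose row held 413 and 388 opposite-strand reads. By contrast, miRNAs of the Hox clusters, active in hindbrain and trunk, summed to 176 to 189 CPM. Markers of other cell types were present too. Their sums were 16564 to 21180 CPM for the endothelial Mir126a, 12983 to 15695 for mural and mesenchymal miRNAs, 10008 to 13628 for epithelial, 251 to 327 for erythroid, 373 to 452 for leukocyte, 22.4 to 45.0 for muscle and 7.73 to 10.4 CPM for liver. The leukocyte sum lacks Mir142, which had no row and lies opposite Mir142b, whose row held 1308 and 1556 opposite-strand reads. Fewer cells of a type and less RNA per cell cannot be told apart in such bulk tissue.

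All 10 genes were read in both libraries. Each had at least 641 reads in each. Of the 14 plus-strand genes of the stretch with a row, 11 reached 10 reads in both libraries, against 20.4% of all counted genes. The 10 were listed with earlier results known, so their detection is no test of the stretch. Together they gave 107008 reads in replicate 1, or 2.47% of assigned reads with an exact 95% Clopper-Pearson interval of 2.45% to 2.48%. In replicate 2 they gave 99347 reads, or 2.26% with an interval of 2.25% to 2.27%. The mean share was 2.36% ± 0.149 (SD, n = 2), and the libraries differed by more than counting error. Such intervals cover counting error only, since reads without molecular identifiers are not independent molecules.

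Mir127 and Mir431, both antisense to Rtl1, led the set. Mir127, whose loss is known to impair the placenta through Rtl1, reached 9128 CPM (replicate 1) and 8199 CPM (replicate 2), a mean of 8663 ± 656.8 (SD, n = 2), and ranked 26th of 1973 genes by gene-strand reads. Mir431, which has been studied in regrowing sensory axons, stood at 7873 and 7127 CPM, a mean of 7500 ± 527.5, at rank 31. Both libraries of Mir127 lay above both libraries of Mir431, by a ratio of 1.16 in replicate 1 and 1.15 in replicate 2. These 2 genes held 68.8% and 67.8% of the reads of the 10.

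Mir433 and Mir434, from the same antisense strand, were several times lower than Mir127 and Mir431. Mir434 stood at 1641 and 1665 CPM, a mean of 1653 ± 17.2 (SD, n = 2). Mir433 stood at 1647 and 1474 CPM, a mean of 1560 ± 122.3. The 2 genes changed order between the libraries and their values overlapped, so their levels did not differ beyond the spread. Mir433 lies between Mir431 and Mir127, 1177 bases from one and 1007 bases from the other. Mir431 was 4.78-fold and 4.84-fold above it in the 2 libraries, and Mir127 5.54-fold and 5.56-fold. Mir127 was 5.56-fold and 4.92-fold above Mir434. All 4 anti-Rtl1 genes together made 82.2% and 81.7% of the reads of the 10.

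Mir337 was the highest of the genes between Meg3 and Rtl1. Its level was 1961 CPM (replicate 1) and 1885 CPM (replicate 2), a mean of 1923 ± 53.9 (SD, n = 2), above both values of Mir434 and Mir433. Mir540, 194 bases on, stood at 881 and 892 CPM, a mean of 886 ± 7.83. Mir665, a further 167 bases on, stood at 867 and 708 CPM, a mean of 787 ± 112.6. Both values of Mir540 lay above both of Mir665, but in replicate 1 by a ratio of only 1.02, against 1.26 in replicate 2. With edgeR's TMM scaling the values of this pair overlapped. Mir337 thus stood 2.23-fold and 2.11-fold above its next neighbour on the chromosome.

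Within the 10, the 3 genes nearest Meg3 were the lowest. Outside the list, Mir3070a, Mir3070b and Mir432 lie further from Meg3 and were lower still, at means of 6.19, 0.572 and 0 CPM. Mir770, the one inside Meg3, stood at 364 and 323 CPM, a mean of 343 ± 29.0 (SD, n = 2), at rank 159. Mir673 stood at 186 and 175 CPM, a mean of 181 ± 7.70, and Mir493 at 148 and 146 CPM, a mean of 147 ± 1.04, at rank 208. The 3 genes did not overlap one another in level. From Mir493 to Mir337, 5473 bases further, the level was 13.3-fold higher in replicate 1 and 12.9-fold in replicate 2. From Mir665 to Mir431, over 4039 bases, it was 9.08-fold and 10.1-fold higher.

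**Figure D2:**
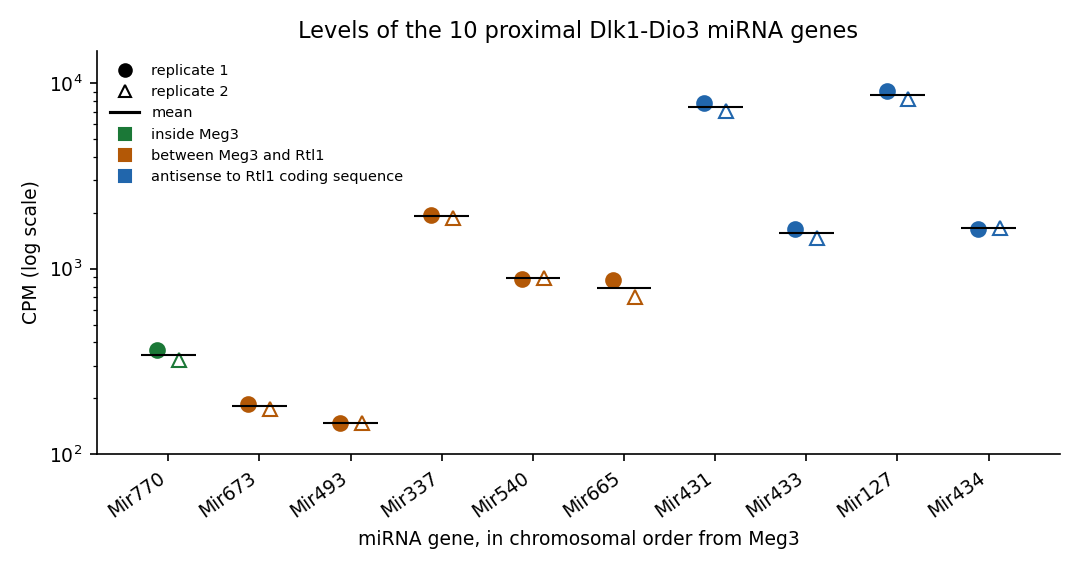
CPM (log scale) of each of the 10 genes in chromosomal order, with replicate 1 as filled circles, replicate 2 as open triangles and the mean as a line; colours give the position relative to Meg3 and Rtl1. The values of a gene lie close together beside the 58.9-fold range between the mean of Mir127 and that of Mir493.

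Ordered by mean CPM, the genes ran Mir127, Mir431, Mir337, Mir434, Mir433, Mir540, Mir665, Mir770, Mir673 and Mir493. Of the 9 neighbouring pairs in this order 8 did not overlap between genes, and the exception was Mir434 with Mir433. No like count was made over other genes, so this count describes only the 10 and sets them apart from no others. An exact permutation test of 2 against 2 values cannot give a p under 0.333, so no pair was tested. Reads of a library below 30 nt were taken to stand for whole mature miRNAs, which gene counts cannot show. CPM were therefore not divided by hairpin length. Per 100 bases of hairpin, Mir540, at 1314 and 1331, moved ahead of Mir433, at 1328 and 1188 CPM per 100 bases, with overlapping values. The other places kept their order. A mean of 1000 CPM or more was reached by 5 of the 10 genes, which were listed with earlier results known. It was reached by 5 of the 14 plus-strand genes of the stretch with a row, and by 5.12% of all counted genes.

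**Figure D3:**
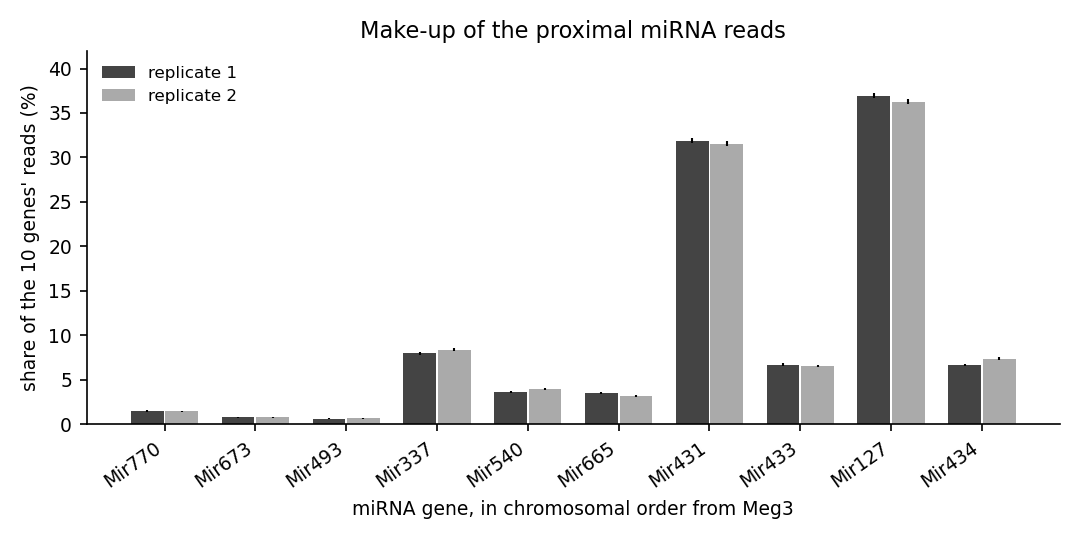
Share of the reads of the 10 genes held by each gene (percent, axis from 0), in chromosomal order; dark bars are replicate 1, light bars replicate 2, and error bars are exact 95% Clopper-Pearson intervals, which cover counting error only. Mir127 and Mir431 hold the tallest bars in both libraries, and Mir434 stands at 6.65% in replicate 1 and 7.37% in replicate 2.

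The make-up of the set was close in both libraries. Mir127 held 37.0% of the reads of the 10 in replicate 1 and 36.3% in replicate 2, and Mir431 held 31.9% and 31.5%. Mir337 held 7.94% with an interval of 7.78% to 8.10%, and then 8.34% with an interval of 8.17% to 8.52%. Mir434 held 6.65% (6.50% to 6.80%) and 7.37% (7.21% to 7.54%), and Mir665 moved the other way, from 3.51% (3.40% to 3.62%) to 3.13% (3.03% to 3.24%). Mir540 held 3.57% (3.46% to 3.68%) and 3.95% (3.83% to 4.07%). The intervals of the libraries did not overlap for these 4 genes and for Mir127, and overlapped for the other 5. They cover counting error only, and no like count was made over other genes, so this count describes only the 10. Mir770 held 1.47% and 1.43%.

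Between the 2 pools each of the 10 genes differed by less than 2-fold. Under Fisher's exact test over 511 genes, with Benjamini-Hochberg adjustment and a minimum difference of 2-fold, 0 of the 10 were called, against 2.74% of all genes tested. The test compares these 2 libraries, not conditions, and its p-values cover counting error only; the chi-square per degree of freedom was 11.6 over the 10 genes. Without the fold minimum 6 of the 10 passed an adjusted p of 0.05, all lower in replicate 2, and 0 of the 10 passed higher. Of all genes tested, 32.7% passed in either direction, 12.5% lower and 20.2% higher in replicate 2. The same count, 6 of 10, had an unadjusted p under 0.05, against 39.9% of all genes tested. Among the 183 genes between the lowest and highest level of the 10 60.1% passed in either direction and 29.5% lower. The share of the 10 passing in either direction was thus near that of genes of like level. Hairpins cut from 1 primary transcript share their source, so the 10 genes are not independent of one another.

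Mir665 differed most, with a log2 ratio of replicate 2 to replicate 1 of -0.29 on the log2(CPM + 1) scale (Fisher's exact test, adjusted p = 3.7e-16). Next came Mir770 at -0.17, Mir433 at -0.16, Mir127 at -0.15, Mir431 at -0.14, Mir673 at -0.09, Mir337 at -0.06 and Mir493 at -0.01. Mir673 and Mir493 did not pass the test, with adjusted p of 0.406 and 0.951. Mir540 and Mir434 had log2 ratios of 0.02 each and did not pass either, with adjusted p of 0.736 and 0.564. The median log2 ratio was -0.12 over the 10 genes and 0.04 over all genes tested, of which 43.8% were lower in replicate 2. The ratios of Mir540 and Mir434 changed sign, to below 0, under TMM scaling, under DESeq2 size factors and with the most abundant gene left out of the library size. The 6 genes that passed stayed the same 6 under both scalings. Over all genes, 64 were lower and 103 higher in replicate 2 in the main analysis, 90 and 80 under TMM, and 81 and 90 under DESeq2 size factors.

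The summed level of the 10 genes was 24695 CPM (replicate 1) and 22594 CPM (replicate 2). Marker sums also differed between the pools. Epithelial miRNAs summed to 13628 CPM (replicate 1) and 10008 CPM (replicate 2), with Mir429, Mir200a, Mir200b, Mir141 and Mir200c lower in replicate 2 but Mir205 (692 and 976 CPM) and Mir203 (1916 and 2401 CPM) higher. Mir126a stood at 16564 and 21180 CPM, mural and mesenchymal miRNAs at 12983 and 15695 CPM, and neural miRNAs at 30384 and 29638 CPM. Their part in the difference of the 10 genes was not tested. As a percentage of the mean, the SD ran from 0.705% in Mir493 to 14.3% in Mir665 with a median of 5.65%, and the median over the 229 genes of at least 100 CPM was 5.55%.

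**Figure D4:**
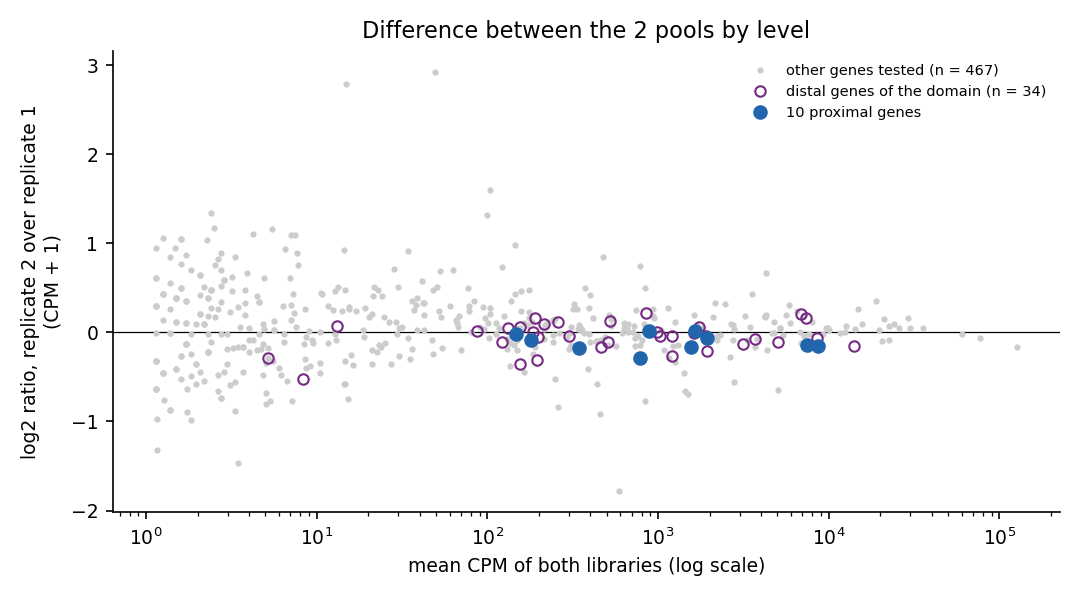
Log2 ratio of replicate 2 over replicate 1, on CPM + 1, against the mean CPM of both libraries (log scale) for all 511 genes tested. Filled blue points are the 10 proximal genes, open purple circles the 34 tested distal genes of the domain and grey points all other genes; the 10 genes lie between -0.29 and 0.02, while genes of low level scatter widely.

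The other annotated miRNA genes of the plus strand of this stretch that had a row were read little or not at all. Mir1906-1 (109544541 to 109544620), which overlaps an exon of Meg3, had 1 read in replicate 1 and 0 in replicate 2. It shares a stretch of 20 bases with another hairpin, so its level is uncertain. Mir3070a (109587943 to 109588031) had 32 and 22 reads and Mir3070b (109588592 to 109588680) had 2 and 3 reads. The latter pair share the mature miR-3070-5p, so reads of that arm match both places and their level is uncertain. Mir432 (109594956 to 109595030), another hairpin antisense to the coding sequence of Rtl1, had 0 reads in both libraries, which allows up to 0.692 and 0.682 CPM. It lies beyond Mir434, which was read at 1641 and 1665 CPM.

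Mir136, known as an anti-Rtl1 miRNA, had no row of its own. Its locus (109595327 to 109595388) lies inside that of Mir3071 (109595318 to 109595397), which M21 places on the minus strand. The row of Mir3071 held 2290 reads in replicate 1 and 1552 in replicate 2 in the gene-strand column, and 4 and 2 reads in the opposite column. That was 528 and 353 CPM, the widest difference between the pools in this stretch at a log2 ratio of -0.58 (Fisher's exact test, adjusted p = 3.6e-34). The row carries version 1 of the identifier ENSMUSG00000070129, whereas M21 has version 2. On which strand the counted annotation placed it is not given in the sources used here, so these reads cannot be given to either miRNA. The mature sequences of both strands overlap for 19 or 20 bases.
miR-136-5p: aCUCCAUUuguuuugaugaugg
miR-3071-3p: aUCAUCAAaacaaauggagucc

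Against the distal part of the domain, from Rian to Mirg, the 10 genes held 27.4% of the domain's plus-strand miRNA reads in replicate 1 and 26.0% in replicate 2, a mean of 26.7% ± 0.929 (SD, n = 2). The distal part counted 39 genes with a row. The highest of these by gene-strand reads were Mir487b at 14726 and 13266 CPM, Mir369 at 8756 and 8352 CPM, and Mir541 at 6929 and 7761 CPM. Mir487b shares a stretch of 20 bases with another hairpin, so its level is uncertain. Mir127 thus lay below Mir487b in both libraries and above Mir369 in replicate 1 only. This order holds for genes with their own row. Mir409, which had none, lies opposite Gm24321, whose row held 45383 and 44457 opposite-strand reads, more than the 39553 and 36052 reads of Mir127. The median level was 1223 CPM over the 10 genes, and 565 CPM over the 14 plus-strand genes of the proximal stretch that had a row, which adds 4 genes of little or no reads. In the distal part it was 300 CPM over all 39 genes with a row and 515 CPM over the 34 with at least 10 reads in the libraries together. The median log2 ratio between the pools was -0.12 over the 10 genes and -0.04 over those 34. With 2 libraries these differences were not tested. With the domain's genes of shared 20-base stretches left out, the 10 genes held 35.3% of the reads, and with reads of the opposite strand credited to genes without a row, 22.2%.

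Reads on the opposite strand were absent from 9 of the 10 genes. Mir337 had 51 of 8548 reads on the opposite strand in replicate 1, or 0.597% with a Clopper-Pearson interval of 0.445% to 0.784%, and 48 of 8335, or 0.576% (0.425% to 0.763%), in replicate 2. Any opposite-strand read was found in 15.5% of the 328 genes with at least 100 reads. M21 places Mir3544 (109585813 to 109585873) on the minus strand across Mir337, with no row of its own, and their mature sequences overlap for 17 and 21 bases.
miR-337-5p: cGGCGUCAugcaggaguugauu
miR-3544-3p: aCUCCUGCaugacgccguuccc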

How the data were processed

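The deposited tables hold raw read counts per miRNA gene, made by the authors on mm10 with annotation M4, per the README notes. The sources used here do not name the aligner, the counter, trimming or the strand of each counted gene. Counts stand in 3 columns, for both strands, the gene strand and the opposite strand; which is which was read from the values. Left out were 4 rows with no gene name: unmapped reads (17.5% and 16.8% of the libraries), reads of several places (37.9% in each) and reads in no feature (5.49% and 5.93%), and 0 ambiguous reads. M21 symbols were matched by Ensembl ID without version (1894 of 1973 genes; 7 of the 10 genes had the same version). CPM were computed over gene-strand reads. A two-sided Fisher's exact test (SciPy 1.17.1, Python 3.11.15), tested on simulated data, compared the libraries for 511 genes with 10 or more reads summed over the libraries, with Benjamini-Hochberg adjustment. The quasi-likelihood test of edgeR has no residual degrees of freedom between 1 library and 1 library. Scalings came from edgeR 4.0.16 and DESeq2 1.42.0 in R 4.3.3, and folding energies from RNAfold 2.7.2. All 10 genes are named. Others were named by position in the stretch, as the 3 highest distal genes with a row, or for a shared seed. Mir409, Mir142 and the named neural and epithelial genes were named after their values were seen. Members, lists and tests were chosen with earlier results of these data known. Alternatives covered strand, scaling, hairpin length, pseudocounts of 0.1 and 10 in place of 1, low-count filters and leaving out each replicate.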

Additional observations from a re-analysis of the deposited data

Results flagged for a closer look

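Reads were present outside the columns and genes used for the levels, above the limit of 3 reads that a count of 0 allows. On the strand opposite to Mir337 there were 51 reads in replicate 1 and 48 in replicate 2. The row at the locus of Mir136 and Mir3071 held 2290 and 1552 reads. Of 26 rows with at least 100 reads that have an M21 miRNA gene without a row on the other strand, 11 had over 50% of their reads on the opposite strand and 15 had less, the rows of Mir337 and Mir3071 among the latter. Which annotation strand explains the reads at Mir3071 was not tested.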

How the results depend on the processing

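The share of assigned reads held by the 10 genes, 2.36%, was 2.71% with the most abundant gene left out of the library size and 1.12% of all mapped reads, as larger or smaller totals require. It stood within 1 SD in the both-strand column and with opposite-strand reads credited, and was 2.26% without replicate 1 and 2.47% without replicate 2. The share of the domain's reads, 26.7%, was 22.2% with opposite-strand reads credited and 35.3% without genes that share a stretch, as the changed sums require, and 26.0% to 27.4% without either replicate. The count of 0 genes called between the libraries became 6 without the fold minimum, and stayed 0 under the other 5 alternatives run. Of 9 neighbouring pairs, 7 did not overlap under TMM and 8 under the 3 other alternatives. Leaving out a replicate leaves no comparison between libraries. The ratio between the libraries moved by more than its counting interval for 2 of 10 genes, Mir431 and Mir127, both further below 0, under TMM, DESeq2 size factors and without the most abundant gene, and for 0 of 10 under the other 4 alternatives. No paired analysis was possible because the series holds 1 group. With 2 libraries, spread is estimated from 1 difference a gene.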
